A study of Homo sapiens with 12 samples.

Results

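The 33 transcripts described here encode the folding machinery of the endoplasmic reticulum (ER) and the heat shock proteins of the cytosol and mitochondria. They were chosen by name. All 33 gene symbols matched a row of the deposited count table, which holds 63677 gene rows, and all 33 passed the filter on low counts that left 17862 genes for testing. The ER members number 18: HSPA5, HSP90B1, DNAJB9, DNAJC3, DNAJB11, SDF2L1, HERPUD1, XBP1, PDIA4, PDIA6, CRELD2, MANF, SEL1L, EDEM1, SYVN1, HYOU1, CALR and CANX. The heat shock members number 15: HSPA1A, HSPA1B, HSPA8, HSPH1, DNAJB1, DNAJA1, HSP90AA1, HSP90AB1, HSPB1, HSPD1, HSPE1, BAG3, HSPA4, HSPA9 and HSF1. Of these, 3 (HSPD1, HSPE1 and HSPA9) work in the mitochondrial matrix.

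RNA was sequenced from PANC-1 and MIA PaCa-2, established human pancreatic carcinoma lines, each given either siRNA against RBM3 (a mixture of a pair of siRNAs) or a negative control siRNA, with 3 libraries in each of the 4 groups. RBM3 is a cold-inducible RNA-binding protein, and the study compared both lines with and without its knockdown. Cells of all groups grew for 72 h, were transfected with Lipofectamine in medium without serum for 4.5 h at 25 nM siRNA, and recovered overnight in full medium, so the control libraries carry the transfection too. The labels name a pair of media without assigning them to lines and do not say that replicates were separate cultures, so medium and line cannot be told apart, and p-values cover the spread among libraries alone, part of which may be technical.

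When unfolded proteins accumulate in the ER, the sensors IRE1, PERK and ATF6 start the unfolded protein response. ATF6 and spliced XBP1 then raise ER chaperones, disulphide isomerases and the ER-associated degradation machinery, which returns misfolded proteins to the cytosol for the proteasome. In the cytosol and nucleus, unfolded proteins release heat shock factor HSF1 from chaperones, and HSF1 trimers raise HSP70, HSP40, HSP90 and small heat shock proteins. Secretory epithelia such as the exocrine pancreas carry a large ER, and carcinoma cells often hold raised heat shock protein levels.

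Both sets are known for distinct promoter elements, so those sequences are shown first. RefSeq windows (GRCh38.p14, 250 bases before to 50 after each annotated start, both strands searched) were found for 32 members, all but HSF1. The ER stress element, a CCAAT box followed after 9 free bases by the ATF6 box CCACG, was present in 7 of 18 ER members, in 0 of 14 heat shock members and in 0.092% of 27305 genes. The compact form, ATTGG followed after 1 free base by CCACG, was present in 3 of 18 ER members (SDF2L1, HERPUD1 and HYOU1), in 0 of 14 heat shock members and in 0.07% of genes. A heat shock element of 3 units, GAANNTTC followed after 2 free bases by GAA, was present in 0 of 18 ER members, in 5 of 14 heat shock members (HSPA8, DNAJA1, HSP90AA1, HSP90AB1 and HSPD1) and in 0.608% of genes. Its first 2 units alone, GAANNTTC, which every longer match contains, were present in 1 ER member (CANX), in 9 of 14 heat shock members and in 8.207% of genes. These matches are descriptions of the windows, and binding was not measured. The upstream 250 bases of HSPA5, the master ER chaperone, and of HERPUD1, the ER member with the largest line difference, are given from RefSeq with the element in capitals.
HSPA5 (chr9:125241344-125241593, minus strand): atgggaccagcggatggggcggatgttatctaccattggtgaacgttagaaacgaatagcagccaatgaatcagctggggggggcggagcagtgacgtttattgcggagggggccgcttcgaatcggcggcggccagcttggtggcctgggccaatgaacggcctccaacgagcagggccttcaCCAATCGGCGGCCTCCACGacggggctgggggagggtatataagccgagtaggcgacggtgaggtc
HERPUD1 (chr16:56931892-56932141, plus strand): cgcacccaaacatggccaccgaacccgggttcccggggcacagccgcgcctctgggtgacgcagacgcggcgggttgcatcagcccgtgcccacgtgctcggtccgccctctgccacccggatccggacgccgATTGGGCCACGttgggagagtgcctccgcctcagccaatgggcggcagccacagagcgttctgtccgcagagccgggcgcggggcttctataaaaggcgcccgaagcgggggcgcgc

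For the other ER members with an ER stress element, 1 match each is given in capitals with 12 flanking bases on each side. Those of CRELD2, CALR, SDF2L1 and HYOU1 lie on the opposite strand and therefore read in reverse complement.
HSP90B1 (chr12:103930204-103930246, plus strand): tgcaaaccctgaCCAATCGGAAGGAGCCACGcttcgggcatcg
XBP1 (chr22:28800591-28800633, minus strand): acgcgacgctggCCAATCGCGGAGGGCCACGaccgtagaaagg
PDIA6 (chr2:10812841-10812883, minus strand): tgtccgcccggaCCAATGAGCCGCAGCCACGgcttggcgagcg
CRELD2 (chr22:49918542-49918584, plus strand): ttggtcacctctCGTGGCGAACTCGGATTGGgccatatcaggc
CALR (chr19:12938372-12938414, plus strand): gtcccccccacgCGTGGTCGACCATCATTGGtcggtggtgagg
CANX (chr5:179698766-179698808, plus strand): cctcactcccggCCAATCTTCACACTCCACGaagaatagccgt
SDF2L1 (chr22:21642102-21642136, plus strand): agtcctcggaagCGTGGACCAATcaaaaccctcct
HYOU1 (chr11:119057368-119057402, minus strand): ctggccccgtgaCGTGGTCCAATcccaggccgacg

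On the heat shock side, the upstream 250 bases of HSPA1A and HSPA1B, neighbouring genes for the stress-inducible HSP70, carry the 2-unit match in capitals. They were identical at 235 of 249 aligned bases (94.4%), and the proteins are nearly identical as well, which matters for counting because reads can be shared between the copies.
HSPA1A (chr6:31815293-31815542, plus strand): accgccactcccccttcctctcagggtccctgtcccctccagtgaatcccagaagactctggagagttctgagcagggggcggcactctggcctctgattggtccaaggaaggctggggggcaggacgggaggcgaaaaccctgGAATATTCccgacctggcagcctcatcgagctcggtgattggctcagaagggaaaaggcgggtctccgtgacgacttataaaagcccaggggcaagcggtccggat
HSPA1B (chr6:31827488-31827737, plus strand): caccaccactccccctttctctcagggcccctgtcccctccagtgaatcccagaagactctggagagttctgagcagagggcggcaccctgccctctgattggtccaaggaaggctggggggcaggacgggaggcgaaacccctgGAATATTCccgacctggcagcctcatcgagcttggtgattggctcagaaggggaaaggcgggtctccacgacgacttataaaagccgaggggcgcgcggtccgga

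For the members whose 3-unit heat shock element lies upstream of the start, 1 stretch each is given with its flanks. That of HSPD1 holds a pair of overlapping matches near the edge of the window and has shorter flanks.
HSPA8 (chr11:123062342-123062378, minus strand): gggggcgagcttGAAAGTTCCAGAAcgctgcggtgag
HSP90AA1 (chr14:102087108-102087144, minus strand): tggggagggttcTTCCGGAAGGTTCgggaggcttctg
HSP90AB1 (chr6:44247766-44247802, plus strand): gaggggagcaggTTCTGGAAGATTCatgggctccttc
HSPD1 (chr2:197500061-197500090, minus strand): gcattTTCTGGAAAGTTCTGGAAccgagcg

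Total counts ranged from 14217185 to 39652502 per library, with MIA PaCa-2 control replicate 1 the deepest. Levels are given in CPM, counts scaled to a common library size with TMM factors, and a count of 0 allows up to 0.0757 to 0.211 CPM (3 counts, counting error only). RBM3 was at 96.5, 194.7 and 83.0 CPM in PANC-1 RBM3 siRNA libraries, against 567.2, 425.8 and 436.3 CPM in PANC-1 control libraries (log2 fold change -1.93, SE 0.30, edgeR quasi-likelihood adjusted p = 0.516). It had 44.4, 37.4 and 61.9 CPM in MIA PaCa-2 RBM3 siRNA libraries, against 249.8, 276.6 and 206.6 CPM in MIA PaCa-2 control libraries (-2.35, SE 0.31, edgeR adjusted p = 0.0426). In both lines all siRNA libraries lay below all control libraries, for which the exact two-sided permutation p is 0.1, the smallest that 3 against 3 allows. PANC-1 RBM3 siRNA replicate 3 stood apart: MIA PaCa-2 transcripts were present in it, with COL1A2 at 440.7 CPM, against at most 1.67 CPM in the other PANC-1 libraries and 899.3 to 1814 CPM in MIA PaCa-2, and ALDH1A1 at 681.6 CPM, against at most 2.14 CPM and 1137 to 1475 CPM. FOXA2, a PANC-1 marker, was at 42.7 CPM in it and at 63.4 to 82.2 CPM in the other PANC-1 libraries. Without it the PANC-1 estimate of RBM3 was -1.72 (SE 0.30, edgeR adjusted p = 1), and the main log2 fold changes and counts that use it are also given without it. Summed leukocyte markers lay between 1.18 and 3.28 CPM in PANC-1 and between 10.3 and 22.1 CPM in MIA PaCa-2, highest in MIA PaCa-2 control replicate 1 through CD14 (20.5 CPM), while PTPRC was at most 0.171 CPM. Summed over 8 fibroblast and endothelial markers, the level was 9.70 to 18.9 CPM in PANC-1, nearly all of it THY1 (8.37 to 17.8 CPM in PANC-1 and 0 in MIA PaCa-2), and 0.631 to 8.09 CPM in MIA PaCa-2, where control replicate 1 was highest through CDH5 (7.57 CPM, against at most 0.619 CPM in any other library). PECAM1 was at 0 in all libraries. The part of these markers in the results was not tested. Mitochondrially encoded transcripts were listed at 0 throughout, so they gave no check of RNA quality.

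Chaperones covered a wide range of abundance in both lines. Per kilobase of annotated exon (GENCODE 29 lengths, which include all isoforms), HSP90AB1, the constitutive cytosolic HSP90, was the most abundant member in all 4 groups, at 757.4 ± 77.3 in PANC-1 under RBM3 siRNA, 777.2 ± 97.3 in PANC-1 under control siRNA, 923.5 ± 71.2 in MIA PaCa-2 under RBM3 siRNA and 904.0 ± 128 CPM per kb in MIA PaCa-2 under control siRNA (SD, n = 3 each). In PANC-1 the next was HSPA8, the constitutive HSP70, at 401.5 ± 122.9 CPM per kb under RBM3 siRNA and 444.0 ± 122.3 under control siRNA, a spread that reached that of calreticulin (CALR), a lectin chaperone of the ER lumen (301.5 ± 22.4 and 331.9 ± 4.88). In MIA PaCa-2 the next was the small heat shock protein HSPB1, at 434.0 ± 98.7 under RBM3 siRNA and 461.1 ± 137.9 CPM per kb under control siRNA, and its mean ± SD overlapped that of HSP90AA1 (404.0 ± 43.1 and 307.2 ± 60.7). CALR led the ER members at 301.5 to 331.9 CPM per kb over the group means. HSPA5, also called BiP, the HSP70 of the ER lumen, followed in PANC-1, at 218.4 ± 48.2 under RBM3 siRNA and 207.0 ± 58.4 CPM per kb under control siRNA, and its mean ± SD overlapped those of the lectin chaperone CANX (171.8 ± 6.98 and 158.7 ± 11.4) and of HSP90B1, the ER HSP90 (165.3 ± 16.8 and 153.6 ± 24.6). In MIA PaCa-2 these 3 neighbours overlapped too, at 197.5 ± 37.7, 192.9 ± 21.3 and 198.4 ± 40.8 CPM per kb under RBM3 siRNA, and at 192.9 ± 45.5, 179.6 ± 6.14 and 169.3 ± 20.5 CPM per kb under control siRNA, for HSPA5, CANX and HSP90B1. The lowest member was HSPE1, the mitochondrial co-chaperonin, at 2.00 to 2.71 CPM per kb, although its partner HSPD1 stood at 236.5 to 256.3. HSPE1 shares 473 of its 1977 annotated exon bases with HSPD1 and the read-through gene HSPE1-MOB4, and reads that overlap several genes may not have been counted, so its level is uncertain.

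Between the lines, the largest differences among the members were in the inducible cytosolic chaperones. HSPA1A, HSPA1B, DNAJA1 and BAG3 were higher in PANC-1, by 2.82-fold (BAG3, control siRNA) to 4.85-fold (HSPA1A, control siRNA), whereas HSPB1 and HSP90AA1 were lower. In the ER list, SDF2L1, MANF, DNAJB11 and HYOU1 were higher in PANC-1, and the stress regulators XBP1 and HERPUD1 were lower. These 12 members were called in the same direction under both siRNAs, 12 of 33 (36.4%), beside 38.9% of all genes tested. The lines differed so widely that 43.6% of all genes were called under RBM3 siRNA and 50.8% under control siRNA (edgeR quasi-likelihood, Benjamini-Hochberg adjusted p under 0.05). The members' shares were 13 of 33 (39.4%) under RBM3 siRNA and 17 of 33 (51.5%) under control siRNA, near that background. DESeq2 called 14 members and limma-voom 13 under RBM3 siRNA, beside 46.6% and 46.8% of all genes, and 18 and 16 under control siRNA, beside 52.4% and 50.1%. Without PANC-1 RBM3 siRNA replicate 3, 17 members were called under RBM3 siRNA, beside 50.2% of all genes, and 19 under control siRNA, beside 51.6%. Without MIA PaCa-2 control replicate 1, 12 members were called under control siRNA, beside 44.8%. Libraries of one line lay wholly above those of the other for 10 members higher and 7 lower in PANC-1 under RBM3 siRNA, beside 28.5% and 25.9% of all genes, and for 13 higher and 8 lower under control siRNA, beside 31.4% and 30.1%. The comparison is between these lines, of which each is a single line.

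**Figure D1:**
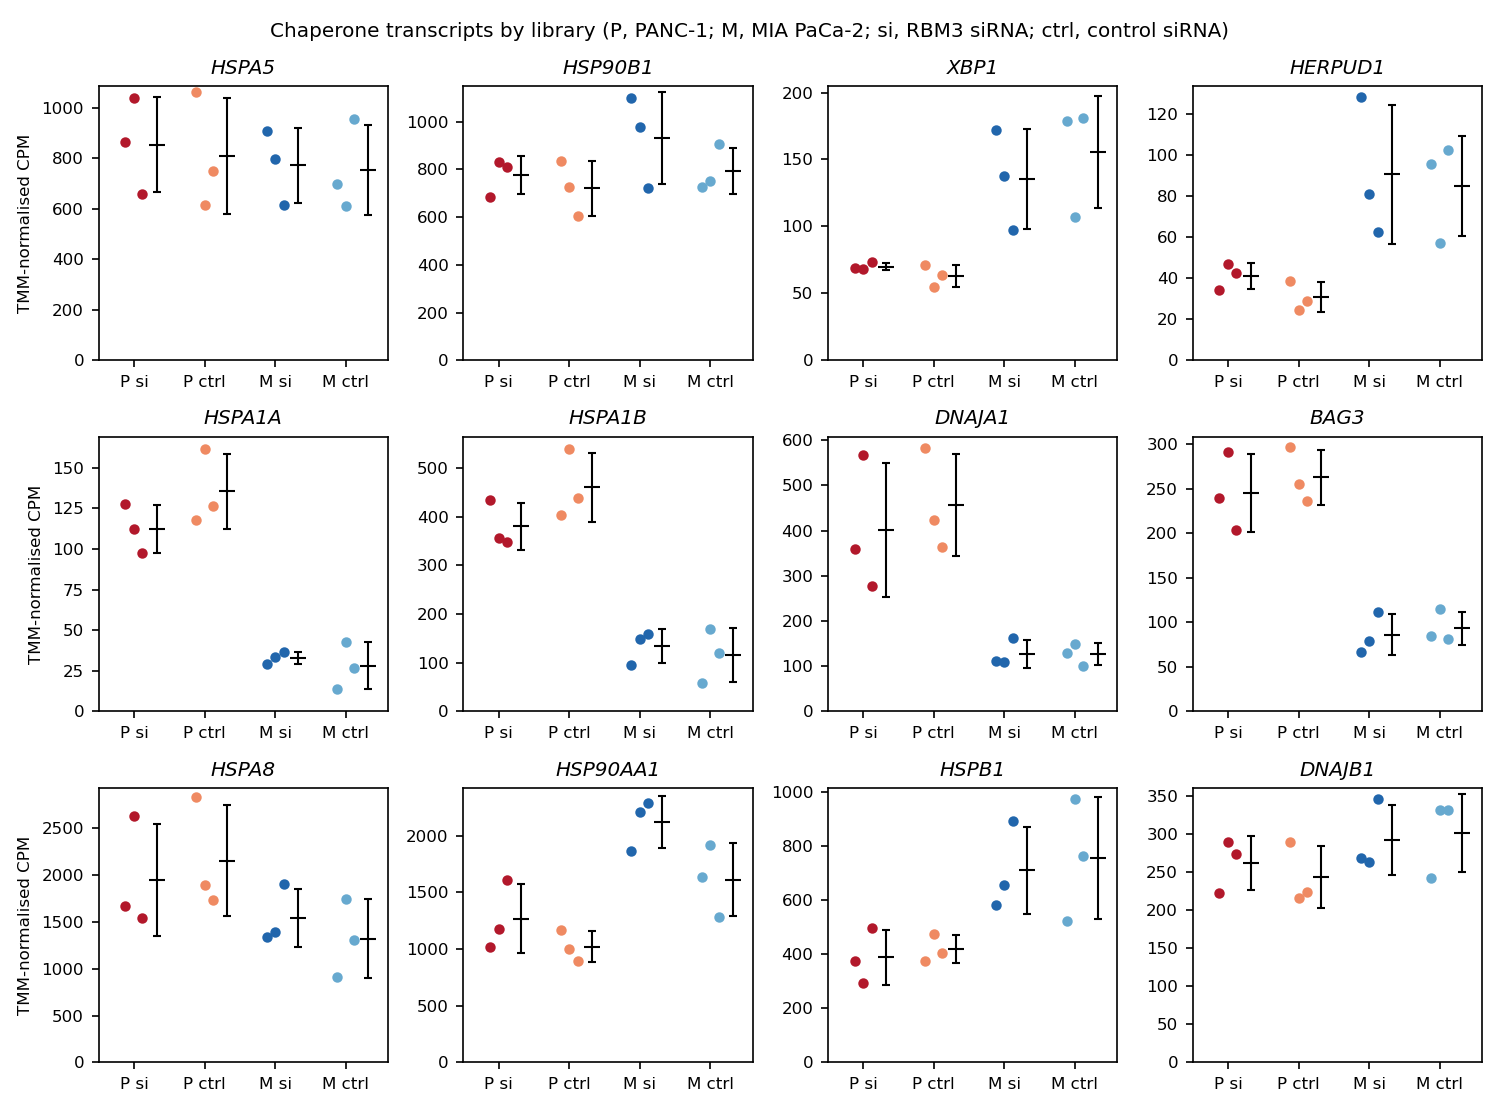
TMM-normalised CPM of 12 members in each library (y axis, linear and starting at 0), for PANC-1 and MIA PaCa-2 with RBM3 or control siRNA (x axis). Points are libraries and bars are mean ± SD of 3; HSPA1A, HSPA1B, DNAJA1 and BAG3 separate the lines completely, while HSPA5 and DNAJB1 overlap in all groups.

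The stress-inducible HSP70 pair was higher in PANC-1 under both siRNAs. HSPA1A (ENSG00000204389) was at 127.4, 112.1 and 97.8 CPM in PANC-1 under RBM3 siRNA, against 29.03, 33.5 and 36.3 CPM in MIA PaCa-2 under RBM3 siRNA. The control siRNA libraries had 117.9, 161.5 and 126.7 CPM in PANC-1, against 14.1, 43.0 and 27.0 CPM in MIA PaCa-2. Every PANC-1 library lay above every MIA PaCa-2 library, and MIA PaCa-2 control replicate 1 was the lowest of all. The log2 fold change was 1.77 (SE 0.31, edgeR adjusted p = 0.000859) under RBM3 siRNA and 2.28 (SE 0.32, edgeR adjusted p = 0.000127) under control siRNA. HSPA1B (ENSG00000204388) was at 435.4, 356.4 and 348.7 CPM in PANC-1 under RBM3 siRNA, against 95.5, 148.2 and 159.4 CPM in MIA PaCa-2. The control siRNA libraries had 403.8, 540.0 and 438.3 CPM in PANC-1, against 57.9, 169.6 and 121.1 CPM in MIA PaCa-2. It followed HSPA1A in order across the MIA PaCa-2 control libraries and stood at 3.18 to 4.49 times its counts in every library. Reads that match both copies cannot be assigned, and how they were counted is not given in the sources used here, so the summed counts of the pair were tested too. These were higher in PANC-1 by 1.56 (log2, SE 0.32, edgeR adjusted p = 0.00219) under RBM3 siRNA and by 2.05 (SE 0.32, edgeR adjusted p = 0.000285) under control siRNA. Under RBM3 siRNA the values without PANC-1 replicate 3 were 1.86 for HSPA1A and 1.56 for HSPA1B, both called. Another annotated transcript, AL671762.1, overlaps 36.5% of the HSPA1B exon bases.

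Co-chaperones of HSP70 went with it in part. DNAJA1, a type I HSP40 that hands substrates to HSP70, was at 359.7, 566.3 and 277.9 CPM in PANC-1 under RBM3 siRNA, against 111.1, 108.3 and 161.7 CPM in MIA PaCa-2. Under control siRNA it was at 582.7, 423.9 and 363.8 CPM in PANC-1, against 129.2, 149.1 and 100.2 CPM in MIA PaCa-2. The lines did not overlap, and the log2 fold change was 1.66 (SE 0.28, edgeR adjusted p = 0.000649) under RBM3 siRNA and 1.86 (SE 0.28, edgeR adjusted p = 0.000237) under control siRNA. BAG3, an HSP70 nucleotide exchange factor of selective autophagy, was at 240.2, 291.6 and 203.8 CPM in PANC-1 under RBM3 siRNA, against 67.1, 79.7 and 111.9 CPM in MIA PaCa-2. Under control siRNA it was at 296.7, 255.9 and 236.1 CPM in PANC-1, against 84.4, 114.8 and 81.0 CPM in MIA PaCa-2. It differed by 1.51 (log2, SE 0.22) and 1.49 (SE 0.22) under RBM3 and control siRNA. Leaving out PANC-1 RBM3 siRNA replicate 3 gave 1.87 for DNAJA1 and 1.63 for BAG3 under RBM3 siRNA. DNAJB1, the type II HSP40 that is itself heat-inducible, did not follow: it was at 221.9, 289.1 and 274.0 CPM in PANC-1 under RBM3 siRNA, against 268.0, 263.7 and 345.6 CPM in MIA PaCa-2, and the control libraries overlapped too, at 289.6, 215.6 and 223.7 CPM in PANC-1 against 242.0, 330.9 and 331.3 CPM in MIA PaCa-2. Its log2 fold change was -0.16 (95% interval -0.56 to 0.24) under RBM3 siRNA, -0.20 without replicate 3, and -0.31 (-0.71 to 0.09) under control siRNA.

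The constitutive HSP70, HSPA8, was at 1674, 2631 and 1537 CPM in PANC-1 under RBM3 siRNA, against 1340, 1392 and 1902 CPM in MIA PaCa-2, and at 2832, 1894 and 1734 CPM in PANC-1 under control siRNA, against 913.7, 1747 and 1306 CPM in MIA PaCa-2. It was not called in edgeR, at a log2 fold change of 0.33 (SE 0.28) under RBM3 siRNA and 0.70 (SE 0.28, edgeR adjusted p = 0.0513) under control siRNA; DESeq2 put the control comparison at an adjusted p of 0.0328. HSP90AA1, the stress-inducible cytosolic HSP90, ran the other way, at 1021, 1174 and 1608 CPM in PANC-1 under RBM3 siRNA, against 1862, 2211 and 2287 CPM in MIA PaCa-2. Under control siRNA it was at 1171, 1001 and 892.9 CPM in PANC-1, against 1636, 1918 and 1282 CPM in MIA PaCa-2. The log2 fold change was -0.74 (SE 0.20, edgeR adjusted p = 0.0104) under RBM3 siRNA and -0.66 (SE 0.20, edgeR adjusted p = 0.0147) under control siRNA. The call was lost without PANC-1 RBM3 siRNA replicate 1 in the RBM3 comparison and without PANC-1 control replicate 4 or MIA PaCa-2 control replicate 2 in the other. The PANC-1 library nearest to MIA PaCa-2 was RBM3 siRNA replicate 3, which holds MIA PaCa-2 transcripts, and without it the value was -0.95 under RBM3 siRNA. HSPB1, which binds unfolded chains without ATP, was at 376.0, 291.8 and 496.1 CPM in PANC-1 under RBM3 siRNA, against 582.8, 654.1 and 890.8 CPM in MIA PaCa-2, and at 372.9, 475.7 and 405.9 CPM under control siRNA, against 523.9, 974.4 and 762.0 CPM. Its log2 fold change was -0.87 and -0.85 under RBM3 and control siRNA (SE 0.25 each), and the call was lost without MIA PaCa-2 control replicate 2 (log2 fold change -0.61, edgeR adjusted p = 0.0671) and, under RBM3 siRNA, without PANC-1 replicate 2 or MIA PaCa-2 replicate 5. With PANC-1 RBM3 siRNA replicate 3 left out, HSPB1 was at -1.09 and HSPA8 at 0.48 under RBM3 siRNA.

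Of the remaining heat shock members only HSPH1 was called by edgeR. HSPH1, an HSP110 exchange factor, was at 254.3, 331.1 and 353.6 CPM in PANC-1 under RBM3 siRNA, against 348.3, 377.4 and 301.2 CPM in MIA PaCa-2, and at 282.5, 306.9 and 245.5 CPM under control siRNA, against 338.3, 397.0 and 380.5 CPM. It was called under control siRNA alone (-0.42, SE 0.16, edgeR adjusted p = 0.0455), the call held in 3 of 12 removals of a library, and the difference between the siRNAs was not called (0.29, SE 0.23). HSF1, the heat shock transcription factor itself, was at 153.0, 148.2 and 137.9 CPM in PANC-1 under RBM3 siRNA, against 140.2, 155.7 and 181.5 CPM in MIA PaCa-2, and at 164.9, 155.5 and 163.0 CPM under control siRNA, against 133.8, 189.1 and 192.2 CPM. Its log2 fold change was -0.12 (95% interval -0.47 to 0.23) and -0.09 (-0.44 to 0.26) under RBM3 and control siRNA. HSP90AB1, HSPA4, HSPD1, HSPE1 and HSPA9 were not called under either siRNA. HSPA4, an HSP110 relative, was at -0.08 and -0.29, and HSPA9, the mitochondrial HSP70, at 0.36 and 0.33 on the log2 fold scale under RBM3 and control siRNA. Without PANC-1 RBM3 siRNA replicate 3, the values under RBM3 siRNA were -0.23 for HSPH1, -0.08 for HSF1, -0.14 for HSPA4 and 0.48 for HSPA9, of which HSPA9 was called.

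In the ER list, XBP1 and HERPUD1 had the smallest p-values. XBP1 (ENSG00000100219), whose spliced form is the transcription factor made by IRE1, was at 69.0, 68.0 and 73.3 CPM in PANC-1 under RBM3 siRNA, against 171.8, 137.6 and 97.3 CPM in MIA PaCa-2. Under control siRNA it was at 71.2, 54.6 and 63.7 CPM in PANC-1, against 178.6, 107.3 and 181.3 CPM in MIA PaCa-2. Its log2 fold change was -0.95 (SE 0.23, edgeR adjusted p = 0.00655) under RBM3 siRNA and -1.30 (SE 0.24, edgeR adjusted p = 0.000739) under control siRNA, and counts per gene do not separate its spliced from its unspliced form. HERPUD1 (ENSG00000051108), a membrane protein of ER-associated degradation, was at 34.4, 46.9 and 42.5 CPM in PANC-1 under RBM3 siRNA, against 128.6, 81.0 and 62.5 CPM in MIA PaCa-2. Under control siRNA it was at 38.9, 24.6 and 29.01 CPM in PANC-1, against 95.6, 57.3 and 102.5 CPM in MIA PaCa-2. The log2 fold change was -1.14 (SE 0.29, edgeR adjusted p = 0.00834) and -1.46 (SE 0.29, edgeR adjusted p = 0.00147) under RBM3 and control siRNA. Both genes stayed called in all 12 removals of a library, which include libraries outside the compared groups. Without PANC-1 RBM3 siRNA replicate 3 the values under RBM3 siRNA were -0.995 for XBP1 and -1.17 for HERPUD1.

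Several secreted and luminal ER factors were higher in PANC-1. MANF, a protein that the stressed ER releases, was at 53.0, 52.5 and 46.6 CPM in PANC-1 under RBM3 siRNA, against 38.4, 37.7 and 25.4 CPM in MIA PaCa-2, and at 69.9, 50.8 and 55.8 CPM under control siRNA, against 31.7, 33.2 and 38.4 CPM. DNAJB11, an HSP40 partner of HSPA5, was at 179.0, 179.0 and 135.8 CPM in PANC-1 under RBM3 siRNA, against 118.2, 114.9 and 102.7 CPM in MIA PaCa-2, and at 193.0, 158.6 and 169.3 CPM under control siRNA, against 112.8, 124.2 and 111.1 CPM. HYOU1, the ER HSP110, was at 506.9, 540.1 and 395.0 CPM in PANC-1 under RBM3 siRNA, against 331.2, 322.9 and 328.0 CPM in MIA PaCa-2, and at 526.1, 473.1 and 494.7 CPM under control siRNA, against 290.7, 377.8 and 364.8 CPM. The lines did not overlap for these 3 genes. Their log2 fold changes under RBM3 siRNA were 0.58 (MANF, SE 0.19), 0.56 (DNAJB11, SE 0.15) and 0.55 (HYOU1, SE 0.15), and under control siRNA they were 0.77, 0.58 and 0.53. SDF2L1, a partner of DNAJB11, was at 45.3, 25.0 and 32.7 CPM in PANC-1 under RBM3 siRNA, against 11.5, 18.3 and 25.5 CPM in MIA PaCa-2, where the lines overlapped, and at 33.4, 42.7 and 45.04 CPM under control siRNA, against 17.6, 26.4 and 18.2 CPM, where they did not (log2 fold change 0.90, SE 0.30, and 0.96, SE 0.30). Calls of SDF2L1 held in 9 of 12 removals of a library under RBM3 siRNA and in 8 under control siRNA, and that of MANF under RBM3 siRNA in 9. When PANC-1 RBM3 siRNA replicate 3 was left out, these genes were at 0.63 (MANF), 0.67 (DNAJB11), 0.67 (HYOU1) and 0.93 (SDF2L1) under RBM3 siRNA.

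The master chaperones of the ER did not separate the lines. HSPA5 (ENSG00000044574) was at 865.0, 1036 and 660.1 CPM in PANC-1 under RBM3 siRNA, against 906.6, 794.9 and 614.3 CPM in MIA PaCa-2, and at 1061, 616.6 and 749.2 CPM under control siRNA, against 696.9, 611.1 and 953.3 CPM. HSP90B1 was at 685.5, 830.5 and 811.8 CPM in PANC-1 under RBM3 siRNA, against 1097, 975.8 and 722.0 CPM in MIA PaCa-2, and at 834.0, 726.7 and 602.9 CPM under control siRNA, against 727.9, 751.3 and 905.0 CPM. Their groups overlapped throughout. The log2 fold change of HSPA5 was 0.15 (95% interval -0.39 to 0.68) under RBM3 siRNA and 0.10 (-0.43 to 0.63) under control siRNA, and that of HSP90B1 was -0.26 (-0.66 to 0.13) and -0.14 (-0.53 to 0.25). DNAJB9, an HSP40 that represses IRE1, was at 24.1, 27.7 and 28.5 CPM in PANC-1 under RBM3 siRNA, against 37.6, 31.5 and 31.6 CPM in MIA PaCa-2, and at 25.7, 21.3 and 23.0 CPM under control siRNA, against 27.5, 33.6 and 38.7 CPM. Although no libraries overlapped, it was called under control siRNA (-0.51, SE 0.18, edgeR adjusted p = 0.0326) and not under RBM3 siRNA (-0.33, SE 0.18, edgeR adjusted p = 0.155), and the difference between these was not called (0.18, SE 0.25). Other calls made under one siRNA only were SEL1L, SYVN1 and CRELD2 under control siRNA and EDEM1 under RBM3 siRNA, and none of these differences was called either. The disulphide isomerases PDIA4 and PDIA6, the lectin chaperones CALR and CANX, and DNAJC3, the inhibitor of PERK, were not called under either siRNA. Without PANC-1 RBM3 siRNA replicate 3, DNAJC3, SEL1L, SYVN1 and HSPA9 were also called under RBM3 siRNA, and HSPA5, HSP90B1 and DNAJB9, at 0.29, -0.30 and -0.38, were not.

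**Figure D2:**
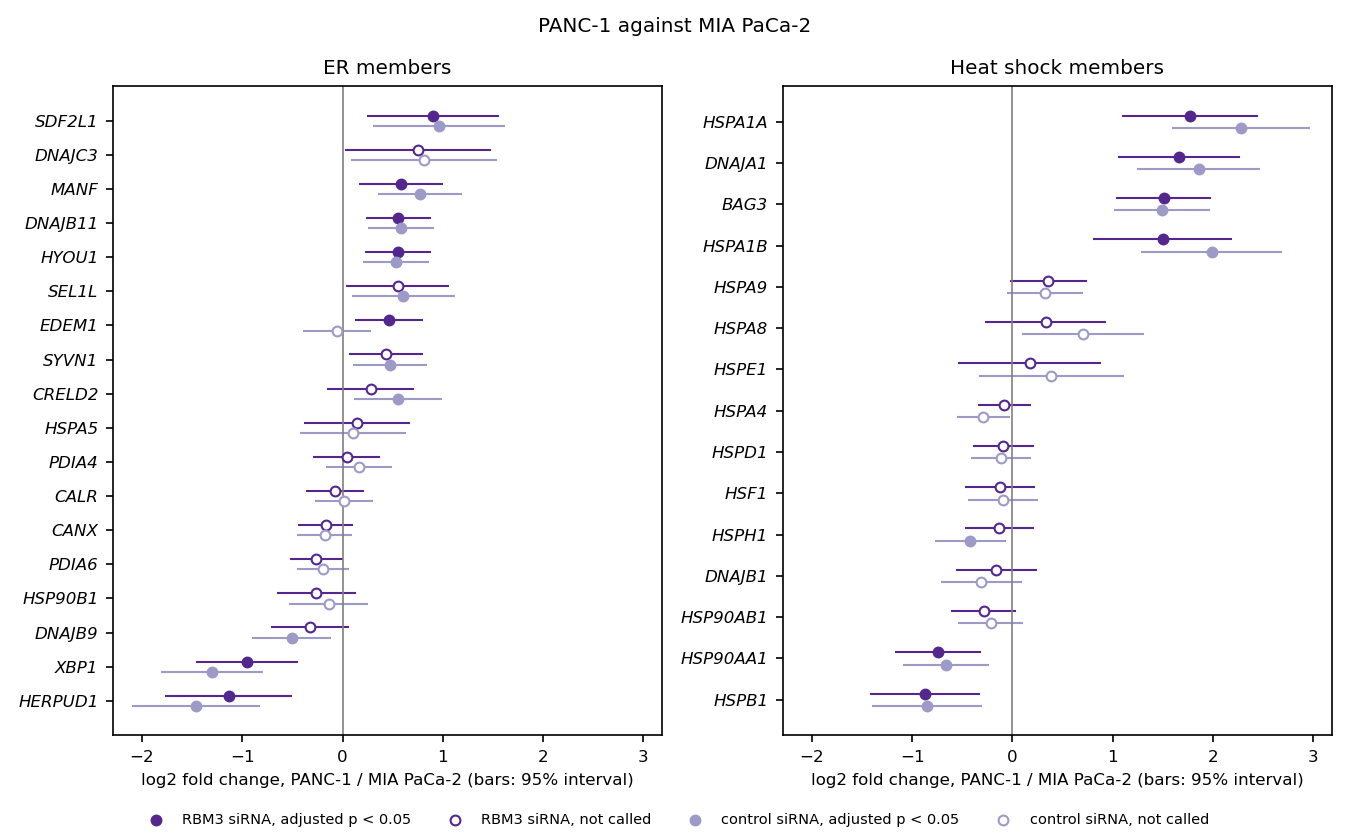
log2 fold change of PANC-1 over MIA PaCa-2 for the 18 ER members (left) and the 15 heat shock members (right), under RBM3 siRNA (dark) and control siRNA (light). Bars are 95% intervals from edgeR and filled points have an adjusted p under 0.05; HSPA1A, DNAJA1, BAG3 and HSPA1B lie farthest to the right, and XBP1 and HERPUD1 farthest to the left.

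Counted by list, the lines differed in both directions. Among ER members 5 were higher, 2 lower and 11 not called under RBM3 siRNA, and 7 were higher, 3 lower and 8 not called under control siRNA. Among heat shock members 4 were higher, 2 lower and 9 not called under RBM3 siRNA, and 4 were higher, 3 lower and 8 not called under control siRNA. Over all genes 24.2% were higher and 19.3% lower under RBM3 siRNA, and 26% were higher and 24.8% lower under control siRNA. The median log2 fold change was 0.21 for the ER list and -0.08 for the heat shock list under RBM3 siRNA, beside -0.004 over all genes, and 0.13 and -0.09 under control siRNA, beside 0.001. In the fit without PANC-1 RBM3 siRNA replicate 3, 8 ER members were higher and 2 lower and 5 heat shock members were higher and 2 lower under RBM3 siRNA, with medians of 0.32 and -0.08, beside -0.01 over all genes. Of all 18422 genes tested in that fit, 4838 were higher and 4405 lower. The heat shock medians thus had the opposite sign of the 4 called members that were higher in PANC-1.

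RBM3 siRNA moved no member past the threshold in either line. RBM3 itself did not pass it in PANC-1 (log2 fold change -1.93, edgeR adjusted p = 0.516). A count of 0 calls in that line therefore does not mean that no member changed. In PANC-1 0 of 33 members were called by edgeR, beside 0% of all genes, and in MIA PaCa-2 0 of 33 were called, beside 0.0112%. DESeq2 and limma-voom also called 0 members in each line, beside 0.0169% and 0% of all genes in PANC-1 and 0.15% and 0.0056% in MIA PaCa-2. At an unadjusted edgeR p under 0.05 there was 1 member in PANC-1 (SEL1L), beside 4.12% of all genes, and 2 in MIA PaCa-2 (SEL1L and EDEM1), beside 2.94%. The log2 fold changes lay between -0.28 (HSPA1B) and 0.52 (SEL1L) in PANC-1 and between -0.43 (EDEM1) and 0.58 (SEL1L) in MIA PaCa-2. The medians were 0.08 for the ER list and -0.10 for the heat shock list in PANC-1, beside 0.03 over all genes, and 0.03 and -0.03 in MIA PaCa-2, beside -0.004. The PANC-1 medians without replicate 3 were 0.08 and -0.01, beside 0.004, and the edgeR count stayed at 0 members. The exact permutation p cannot go below 0.1 with 3 against 3 libraries, so a single gene's separation cannot pass 0.05 by that test.

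**Figure D3:**
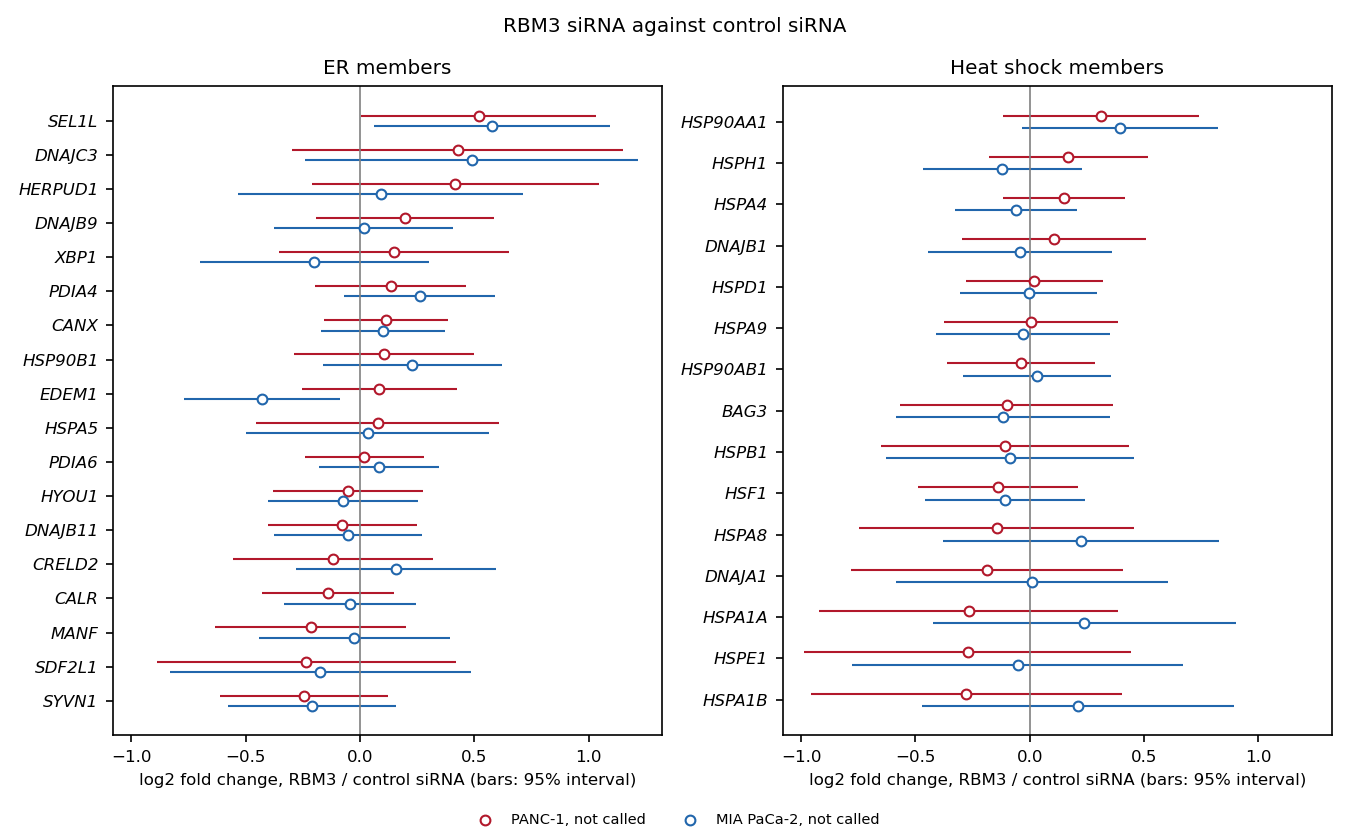
log2 fold change of RBM3 siRNA over control siRNA for the ER members (left) and the heat shock members (right) in PANC-1 (red) and MIA PaCa-2 (blue). Bars are 95% intervals from edgeR; no member is called, and SEL1L and, in MIA PaCa-2, EDEM1 have intervals that leave out 0.

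SEL1L and EDEM1, the members with an unadjusted p under 0.05, belong to the degradation machinery of the ER. SEL1L, the scaffold of the ER ubiquitin ligase complex, was at 104.0, 131.3 and 85.7 CPM in PANC-1 under RBM3 siRNA, against 89.8, 70.8 and 63.5 CPM in PANC-1 under control siRNA. It had 87.3, 77.9 and 54.2 CPM in MIA PaCa-2 under RBM3 siRNA, against 54.9, 36.6 and 55.6 CPM in MIA PaCa-2 under control siRNA. The groups overlapped in both lines by 1 library, the estimates were 0.52 (95% interval 0.005 to 1.03, edgeR unadjusted p = 0.0482, adjusted p = 0.9997) and 0.58 (0.06 to 1.09, unadjusted p = 0.0311, adjusted p = 1), and without PANC-1 RBM3 siRNA replicate 3 the PANC-1 value was 0.64. It was 0.33 without PANC-1 RBM3 siRNA replicate 2. SYVN1, the ligase that SEL1L holds, was at 74.4, 84.6 and 59.8 CPM in PANC-1 under RBM3 siRNA, against 87.7, 85.4 and 86.4 CPM in PANC-1 under control siRNA, a full separation with a log2 fold change of -0.25 (-0.61 to 0.12), which was -0.14 without replicate 3. In MIA PaCa-2 it was at 57.8, 53.8 and 50.2 CPM under RBM3 siRNA, against 53.7, 58.4 and 74.9 CPM under control siRNA. EDEM1, a lectin that marks glycoproteins for disposal, had 53.3, 50.8 and 56.1 CPM in MIA PaCa-2 under RBM3 siRNA, against 77.1, 66.8 and 71.5 CPM in MIA PaCa-2 under control siRNA, also a full separation (-0.43, 95% interval -0.77 to -0.09, unadjusted p = 0.0177, adjusted p = 1 in edgeR). In PANC-1 it was at 62.9, 86.6 and 70.6 CPM under RBM3 siRNA, against 71.7, 75.1 and 60.9 CPM under control siRNA. The difference of its responses, PANC-1 minus MIA PaCa-2, was 0.51 (SE 0.22) and was not called (edgeR adjusted p = 0.9999), and it was 0.53 (SE 0.25) without PANC-1 RBM3 siRNA replicate 3.

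Full separation of the siRNA groups was seen in the lower direction alone. In PANC-1 0 members were higher and 3 (SYVN1, CALR and HSF1) lower in all RBM3 siRNA libraries, beside 3.75% and 2.77% of all genes, and none of these 3 had an edgeR unadjusted p under 0.05. In MIA PaCa-2 0 were higher and 1 (EDEM1) lower, beside 4.41% and 3.63%. For HSPA5 the interval of the log2 response was -0.45 to 0.61 in PANC-1 (estimate 0.08, and 0.22 without replicate 3) and -0.50 to 0.57 in MIA PaCa-2. For HSPA1B it was -0.96 to 0.40 in PANC-1 and -0.47 to 0.89 in MIA PaCa-2, and changes within these intervals are not excluded by 3 libraries a group. HSP90AA1 had the smallest p among heat shock members in both lines, at 0.31 (-0.12 to 0.74) in PANC-1, which was 0.09 without replicate 3, and 0.40 (-0.03 to 0.82) in MIA PaCa-2. PDIA4, a disulphide isomerase, had 341.4, 415.4 and 472.4 CPM in MIA PaCa-2 under RBM3 siRNA, against 331.7, 352.6 and 341.3 CPM under control siRNA, where the groups overlapped. DNAJC3 was at 61.6, 111.9 and 50.4 CPM in PANC-1 under RBM3 siRNA, against 77.6, 49.1 and 39.7 CPM under control siRNA, and at 51.4, 43.8 and 37.8 CPM in MIA PaCa-2 under RBM3 siRNA, against 39.2, 20.6 and 34.9 CPM under control siRNA. Its estimates of 0.43 and 0.49 carried SEs of 0.33 and 0.34 and turned on single libraries. In PANC-1 the estimate was -0.003 without RBM3 siRNA replicate 2, 0.63 without RBM3 siRNA replicate 3 and 0.75 without control replicate 1, and in MIA PaCa-2 it was 0.24 without control replicate 2.

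The responses of both lines were then set against each other. The difference, PANC-1 minus MIA PaCa-2, was called for 0 of 33 members, beside 0% of all genes, and by DESeq2 and limma-voom for 0 as well, beside 0.0169% and 0%. At an unadjusted p under 0.05 there was 1 member, EDEM1, beside 2.98% of all genes. HSPA1A and HSPA1B had differences of -0.51 (SE 0.43) and -0.49 (SE 0.44), XBP1 and HERPUD1 of 0.35 (SE 0.33) and 0.33 (SE 0.41). CRELD2, a luminal factor, was at 61.5, 59.1 and 51.4 CPM in PANC-1 under RBM3 siRNA, against 71.9, 57.8 and 57.0 CPM under control siRNA, and at 40.5, 40.4 and 60.8 CPM in MIA PaCa-2 under RBM3 siRNA, against 40.8, 50.5 and 35.8 CPM under control siRNA (difference -0.27, SE 0.28). HSPA4 was at 427.0, 463.5 and 494.1 CPM in PANC-1 under RBM3 siRNA, against 431.0, 426.9 and 390.5 CPM under control siRNA, and at 471.8, 511.2 and 479.9 CPM in MIA PaCa-2 under RBM3 siRNA, against 545.5, 497.5 and 483.0 CPM under control siRNA (difference 0.21, SE 0.17). Without PANC-1 RBM3 siRNA replicate 3 the differences were -0.44 for HSPA1A, -0.45 for HSPA1B, 0.30 for XBP1, 0.29 for HERPUD1, -0.21 for CRELD2 and 0.15 for HSPA4. None of these differences exceeded the spread between libraries by the edgeR test.

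The relation of the lists to each other varied between libraries of one group, most in MIA PaCa-2. Averaged over the members on the log2 CPM scale, the ER list minus the heat shock list was -1.15, -1.15 and -1.27 in PANC-1 under RBM3 siRNA, and -1.25, -1.42 and -1.27 in PANC-1 under control siRNA. It was -0.74, -0.98 and -1.27 in MIA PaCa-2 under RBM3 siRNA (replicates 1, 2 and 5), and -0.74, -1.36 and -0.85 in MIA PaCa-2 under control siRNA (replicates 1, 2 and 4). The means were -1.19 ± 0.07 and -1.31 ± 0.09 in PANC-1, and -0.99 ± 0.27 and -0.99 ± 0.33 in MIA PaCa-2, with RBM3 and control siRNA (SD, n = 3 each). In MIA PaCa-2, RBM3 siRNA replicate 5 and control replicate 2 lay lowest within their groups and close to PANC-1. No batch is given in the labels.

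**Figure D4:**
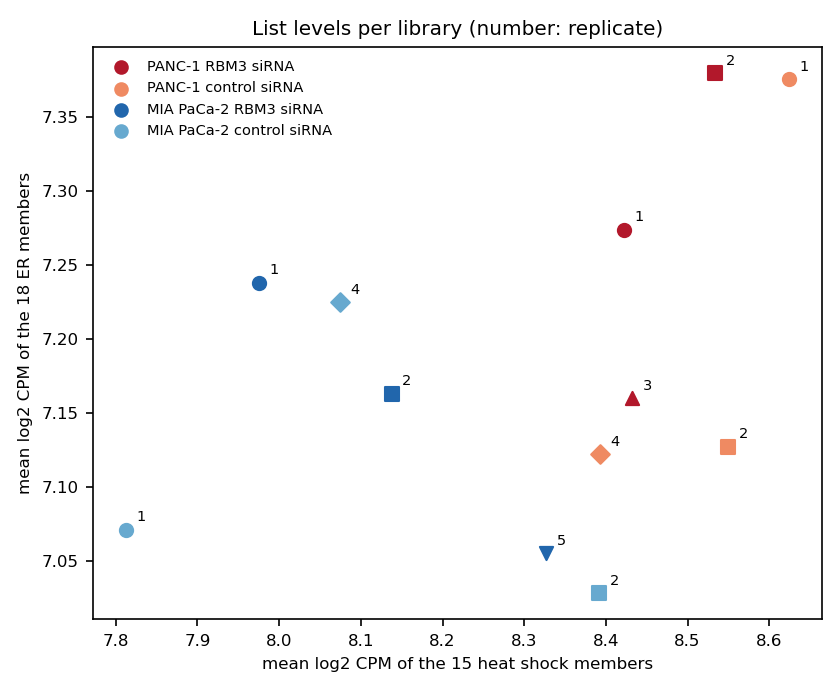
Mean log2 CPM of the 18 ER members (y axis) against that of the 15 heat shock members (x axis) in each library, coloured by group and numbered by replicate. MIA PaCa-2 RBM3 siRNA replicate 5 and control replicate 2 have the highest heat shock means and the lowest ER means of their line.

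Those MIA PaCa-2 libraries shared the pattern gene by gene. RBM3 siRNA replicate 5 and control replicate 2 held the 2 highest levels in the line for 9 of 15 heat shock members (60%), namely BAG3, DNAJA1, HSP90AB1, HSPA1A, HSPA1B, HSPA8, HSPB1, HSPD1 and HSPE1, and for 2 of 18 ER members (CRELD2 and SDF2L1), beside 17.3% of all genes. The same libraries held the lowest XBP1 (97.3 and 107.3 CPM) and HERPUD1 (62.5 and 57.3 CPM) of the line, and DDIT3, the pro-apoptotic factor downstream of PERK, was at 12.1 and 12.7 CPM in them and at 17.1 to 41.4 CPM in the other 4. The widest spread within MIA PaCa-2 was that of HSPA1A, 3.05-fold from its lowest library (control replicate 1) to its highest (control replicate 2), against 1.65-fold within PANC-1, where the lowest was RBM3 siRNA replicate 3. In PANC-1, RBM3 siRNA replicate 2 and control replicate 1 held the 2 highest levels for 6 of 15 heat shock members (40%: BAG3, DNAJA1, DNAJB1, HSP90AB1, HSPA8 and HSPA9) and for 4 of 18 ER members (DNAJC3, HSP90B1, HSPA5 and HYOU1), beside 19.7% of all genes. Total counts in the MIA PaCa-2 pair were 17861847 and 16094995, and control replicate 4, outside the pair, had 16300386. In PANC-1 the pair had 33341322 and 23993638. The part of depth in these patterns was not tested. These patterns are descriptions, since the libraries were picked out by these values. Over 11099 genes, deviations from the group means correlated at 0.59 between MIA PaCa-2 RBM3 siRNA replicate 5 and control replicate 2. Between PANC-1 RBM3 siRNA replicate 2 and control replicate 1 the correlation was 0.67. Other pairs of an RBM3 siRNA and a control library ranged from -0.60 to 0.42 in MIA PaCa-2 and from -0.62 to 0.56 in PANC-1. Deviations within a group sum to 0, so these values are linked. The likeness within the pair named in each line was thus not limited to chaperones.

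**Figure D5:**
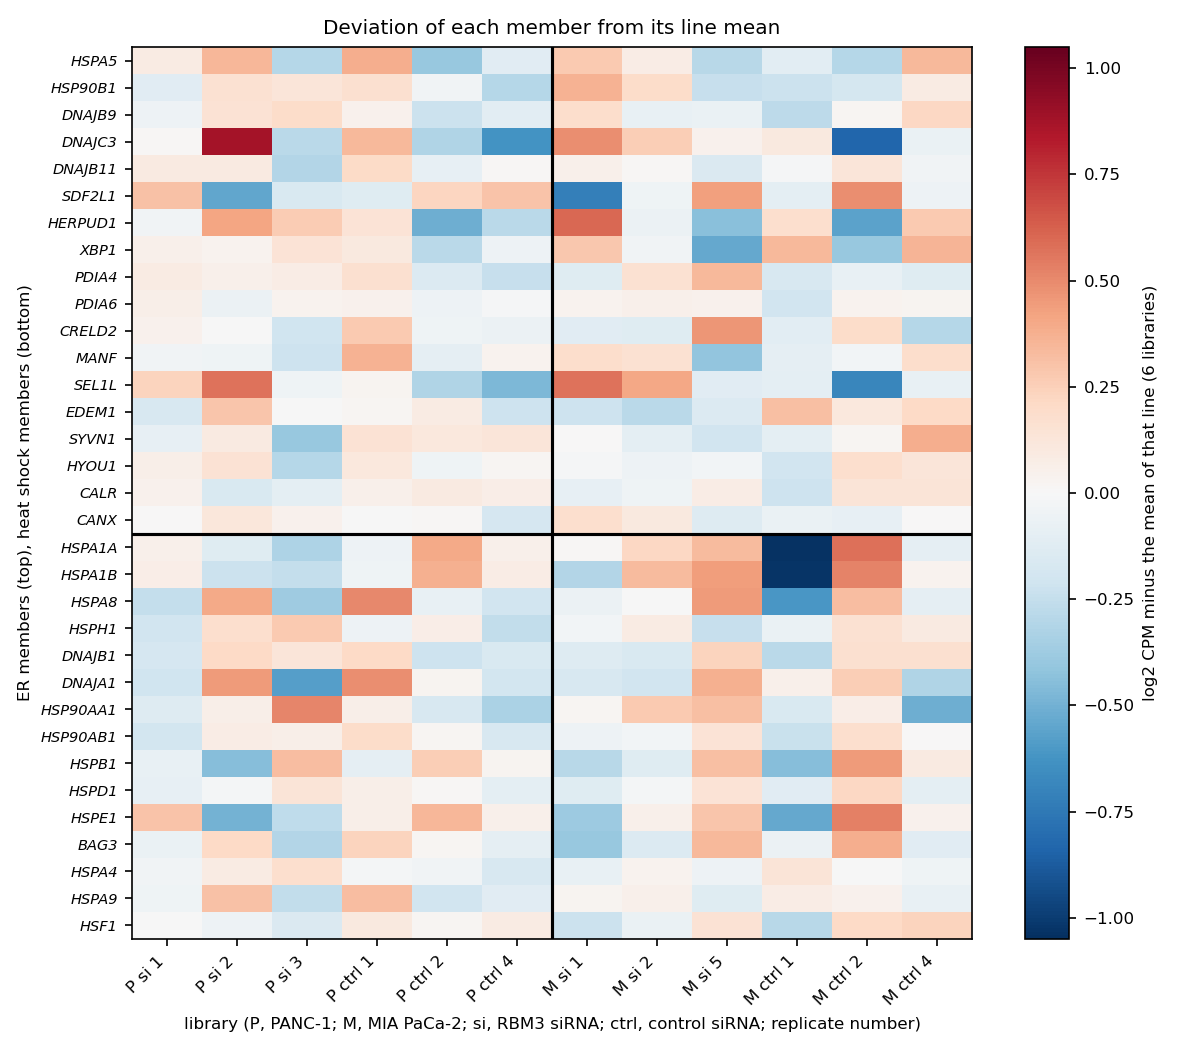
Deviation of each member's log2 CPM from the mean of its line (colour) in the 12 libraries (columns), with ER members above and heat shock members below the horizontal line and PANC-1 left of the vertical line. In MIA PaCa-2 most heat shock rows are red in RBM3 siRNA replicate 5 and control replicate 2, and HSPA1A and HSPA1B are darkest blue in control replicate 1.

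Neighbouring parts of the same pathways were read from lists of genes that hold no member. The counts stand beside 24.2% of all genes higher and 19.3% lower in PANC-1 under RBM3 siRNA. Under control siRNA these shares were 26% and 24.8%. Among 15 sensors and regulators of the unfolded protein response, 2 were higher and 4 lower in PANC-1 under RBM3 siRNA, and 1 was higher and 7 lower under control siRNA. CREB3, a membrane-bound factor of the ATF6 kind, was higher in PANC-1 by 1.80 (SE 0.34) and 1.89 (SE 0.34) under RBM3 and control siRNA, whereas its relative CREB3L1 was lower, at -2.96 (SE 0.64) and -3.52 (SE 0.66). MBTPS2, the site-2 protease that releases ATF6, was lower, at -0.82 (SE 0.18) and -1.65 (SE 0.19). Among 17 genes of ER-associated degradation, 8 were higher and 1 lower under RBM3 siRNA, and 7 and 1 under control siRNA. DERL1, a retrotranslocation channel protein, was higher by 1.84 (SE 0.23) and 1.94 (SE 0.24), SELENOS, a partner of the derlins, by 1.27 (SE 0.28) and 1.75 (SE 0.28), and NPLOC4, a cofactor of the VCP segregase, by 0.78 (SE 0.15) and 0.81 (SE 0.15). DERL3 was at 0.909, 0.806 and 0.278 CPM in PANC-1 under RBM3 siRNA, against 0, 0.0297 and 0 CPM in MIA PaCa-2, and at 1.45, 0.694 and 1.29 CPM under control siRNA, against 0 in all 3 MIA PaCa-2 libraries. Among 18 tested further ER folding factors, 4 were higher and 6 lower under RBM3 siRNA, and 3 and 6 under control siRNA: DNAJC10, a reductase of the ER lumen, was higher by 1.19 (SE 0.19) and 1.00 (SE 0.19), ERP44, which retains oxidases, was lower, at -0.96 (SE 0.17) and -1.18 (SE 0.17), and SIL1, an exchange factor of HSPA5, was lower, at -0.76 (SE 0.17) and -0.88 (SE 0.17).

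On the cytosolic side, 7 of 25 tested co-chaperones were higher and 4 lower in PANC-1 under RBM3 siRNA. Under control siRNA 10 were higher and 7 lower. The shares of all genes higher and lower were 24.2% and 19.3% under RBM3 siRNA, and 26% and 24.8% under control siRNA. BAG1, an HSP70 exchange factor, was higher by 1.22 (SE 0.20) and 1.35 (SE 0.20) under RBM3 and control siRNA. STUB1, the chaperone-linked ubiquitin ligase, was higher by 1.08 (SE 0.21) and 1.35 (SE 0.21). DNAJA2, a relative of DNAJA1, was lower, at -0.80 (SE 0.17) and -1.15 (SE 0.17). Of the 8 subunits of the CCT chaperonin, which folds actin and tubulin, 1 was higher (CCT2) and 2 lower (CCT8 and CCT4) under each siRNA, with log2 fold changes of 0.84, -0.85 and -0.50 under RBM3 siRNA and 0.92, -1.02 and -0.57 under control siRNA. Of 11 mitochondrial folding factors and proteases, 1 was higher and 6 lower under RBM3 siRNA, and 2 and 6 under control siRNA. TRAP1, the mitochondrial HSP90, was lower, at -0.95 (SE 0.18) and -1.004 (SE 0.18). CLPP and HTRA2, proteases of the organelle, were lower, at -0.74 (SE 0.21) and -1.10 (SE 0.33) under RBM3 siRNA, and YME1L1 and LONP1 were lower, at -0.81 (SE 0.15) and -0.83 (SE 0.20) under control siRNA. The genes named here for the lines had an edgeR adjusted p under 0.05. Without PANC-1 RBM3 siRNA replicate 3, the counts higher and lower under RBM3 siRNA were 2 and 3 for sensors and regulators, 8 and 1 for ER-associated degradation, 3 and 6 for ER folding factors, 7 and 6 for co-chaperones, 1 and 3 for CCT subunits and 2 and 6 for mitochondrial factors. In that fit 50.2% of all genes were called in either direction. Of the named genes CREB3L1 then moved the most, to -4.19.

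RBM3 siRNA called 0 genes of any of these lists in either line, by edgeR, DESeq2 or limma-voom. The shares of all genes called were 0%, 0.0169% and 0% in PANC-1, and 0.0112%, 0.15% and 0.0056% in MIA PaCa-2. The smallest p was that of MBTPS1, the site-1 protease that makes the first cut in ATF6. It was at 162.1, 147.6 and 208.4 CPM in PANC-1 under RBM3 siRNA, against 126.4, 102.7 and 104.0 CPM in PANC-1 under control siRNA, and at 269.7, 251.4 and 281.2 CPM in MIA PaCa-2 under RBM3 siRNA, against 190.4, 155.4 and 153.5 CPM in MIA PaCa-2 under control siRNA. All siRNA libraries lay above all control libraries in both lines, beside 3.75% of all genes in PANC-1 and 4.41% in MIA PaCa-2. The estimates were 0.64 (SE 0.16, edgeR unadjusted p = 0.00205, adjusted p = 0.9997) and 0.68 (SE 0.16, edgeR unadjusted p = 0.00121, adjusted p = 0.782). MBTPS1 was picked out by these p-values, which rest on 1 model of all libraries, so its separation is a description. The PANC-1 libraries other than replicate 3, which holds MIA PaCa-2 transcripts, also lay above the controls, with an estimate of 0.46 (SE 0.17, unadjusted p = 0.0153, edgeR adjusted p = 1). CALU, a calcium-binding protein of the secretory pathway, had 384.0, 347.8 and 307.1 CPM in MIA PaCa-2 under RBM3 siRNA, against 225.4, 171.1 and 225.2 CPM under control siRNA (0.74, SE 0.21, unadjusted p = 0.00391, edgeR adjusted p = 1), and it had 419.6, 485.2 and 392.6 CPM in PANC-1 under RBM3 siRNA, against 426.7, 253.7 and 256.0 CPM under control siRNA, where the groups overlapped (0.47, SE 0.21). MBTPS2 was estimated at 0.56 (SE 0.18) in PANC-1 and -0.27 (SE 0.18) in MIA PaCa-2, and the difference of 0.83 (SE 0.26) had an unadjusted p of 0.00733 and an edgeR adjusted p of 0.9999. Without PANC-1 replicate 3, MBTPS2 was at 0.34 in PANC-1, the difference was 0.61, and CALU was at 0.52 in PANC-1.

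The other genes with the smallest p in these lists gave small estimates for RBM3 siRNA, and none had an edgeR adjusted p under 0.05. In PANC-1 the log2 fold changes were 0.27 for ATF6, 0.37 for ERP44 and 0.17 for DNAJC1. The degradation genes EDEM3 and UBE2J1 were at 0.37 and 0.14, and DERL3 at -0.80 (SE 0.53). Among co-chaperones DNAJA2, STUB1 and FKBP5 were at 0.34, -0.33 and 0.29. CCT8, CCT2 and CCT4 were at 0.17, -0.14 and 0.10, and the mitochondrial genes ATF5, YME1L1 and DNAJA3 at -0.32, 0.12 and -0.13. These are all smaller than the MBTPS1 estimate except DERL3, which rests on few counts. Without PANC-1 replicate 3 several were nearer to 0, among them ERP44 at 0.17, DNAJA2 at 0.14, FKBP5 at 0.03, ATF5 at -0.09 and DERL3 at -0.45, and CCT8, CCT4 and DNAJA3 changed sign, to -0.06, -0.07 and 0.03. In MIA PaCa-2 the values were -0.30 for ATF4, 0.25 for DNAJC1 and -0.20 for TXNDC11. RNF139 and UFD1, both of ER-associated degradation, were at 0.34 and 0.23, and FKBP5, CDC37 and PTGES3 at -0.24, -0.24 and 0.09. The values for CCT3, CCT7 and CCT2 were 0.08, -0.06 and -0.06, and those for DNAJC19, YME1L1 and GRPEL2 were 0.28, -0.21 and -0.35. For the difference between the lines, FKBP5 had the smallest unadjusted p of the cytosolic lists (log2 estimate 0.52, SE 0.27, edgeR adjusted p = 0.9999), and its estimate was 0.27 without PANC-1 RBM3 siRNA replicate 3.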

How the data were processed

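Per the labels' protocols, RNA was extracted with Trizol, libraries were made with Illumina TruSeq v2 kits and read from both ends at 75 bp, and the labels give both total and cytoplasmic RNA. The authors deposited 1 table of unscaled counts with Ensembl gene rows. STAR 2.5.2a, Picard, Subread and featureCounts and the build hg19 (GRCh37) are named in the submitters' processing notes. The sources used here give no annotation release, strand setting or duplicate handling, so overlapping and antisense genes cannot be told apart. The gene name table matched 52181 of 63677 rows and gave 39699 symbols.

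All 12 libraries entered 1 edgeR 4.0.16 model in R 4.3.3: TMM scaling, filterByExpr with a minimum count of 10, 4 group means, 8 residual degrees of freedom, two-sided quasi-likelihood tests and Benjamini-Hochberg adjustment over 17862 genes at 0.05. SEs are the size of the log2 fold change over the root of the F statistic. Log2 CPM used a prior count of 2. Levels are mean ± SD over 3 libraries. DESeq2 1.42.0, limma-voom (limma 3.58.1), other scalings and filters, a replicate block and removal of each library were alternatives, and 1 further removal was chosen after seeing the data. The scripts were tested on simulated data.

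The members and lists were chosen with earlier results of these data known. Per-library values are given for 14 members fixed by name and, in each comparison, for the 4 ER and 4 heat shock members with the smallest p; in the other lists the 3 with the smallest p are named, except for the difference of responses, where only the leading ones are. Exon lengths and overlaps come from GENCODE 29, another build, so no coordinates are taken from it. Promoter windows come from RefSeq (GRCh38.p14) and were matched by symbol.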

Additional observations from a re-analysis of the deposited data

How the results depend on the processing

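With RBM3 siRNA, 0 members were called in either line, or for the difference of responses, under every alternative run. The share of all genes called was also small, at most 0.656% in PANC-1, 0.15% in MIA PaCa-2 and 0.305% for the difference. Between the lines the count of members called ranged from 10 to 17 with RBM3 siRNA (beside 29.7% to 50.2% of all genes) and from 11 to 19 with control siRNA (beside 41.8% to 51.8%) when each library was left out. It was lowest without PANC1_siRBM3 replicate 1 or 2 with RBM3 siRNA, and without PANC1_control replicate 2 with control siRNA. Over the other alternatives it ranged from 10 to 17 (beside 23% to 53.1%) and from 14 to 20 (beside 26.2% to 58.4%). RBM3 in MIA PaCa-2 (edgeR log2 fold change -2.35) missed the threshold with median-of-ratios factors (-2.36, adjusted p 0.0543), with a filter of 1 CPM in 6 libraries (-2.35, 0.0505), with the replicate block (-2.69, 0.970) and without MIAPaCa2_control replicate 1 and PANC1_siRBM3 replicate 3 together (-2.32, 0.140), and ranged from -2.58 to -2.20 when each library was left out. Among these single removals it passed only without PANC1_siRBM3 replicate 2 (edgeR adjusted p 0.0012) or replicate 3 (0.0177). Without any other single library it missed the threshold, at an edgeR adjusted p of 0.0631 to 0.548. RBM3 in PANC-1 (-1.93) passed with DESeq2 (-1.95, adjusted p 1.75e-05) and with no filter (-1.91, 9.03e-06), and ranged from -2.42 to -1.72 when each library was left out, passing at -2.42 without PANC1_siRBM3 replicate 2. The cause was not tested.

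Same-numbered libraries were mostly not alike: deviations from the group means of same-numbered libraries of a line correlated at 0.229 and -0.147 in MIA PaCa-2 and at -0.519 and -0.422 in PANC-1, over 11099 genes. Deviations within a group of 3 sum to 0 and so are linked, and the check cannot exclude that libraries were paired. With the replicate block, 11 members were called between the lines with RBM3 siRNA, beside 42.8% of all genes, and 17 with control siRNA, beside 48.4%, and the difference of responses of HSPH1 turned to -0.0057. Without the 3 mitochondrial members, the ER minus heat shock difference was -1.49 in PANC-1 with RBM3 siRNA and -1.60 with control siRNA, by construction of the list. Among log2 fold changes of single members followed through the alternatives, 51 of 360 estimates of called members lost their call with a library left out. Under other alternatives 25 of 362 estimates lost a call and 1 changed sign. That total of 362 includes members not called in the main fit, which had no call to lose. Of list counts by direction, 14 of 240 and 4 of 196 moved by over 1.5 times. Over all members and comparisons, 0 of 360 estimates of called members and 144 of 1620 estimates of members not called changed sign with a library left out. Totals for a left-out library include libraries outside the compared groups, whose removal alters little but the estimate of the spread. Called estimates lie far from 0, so their sign was unlikely to change. Comparing groups alone could not be applied to the difference of responses, and no symbol had several rows to sum. With 3 libraries a group, small responses are not detectable. In PANC-1 the edgeR test did not call RBM3 itself, at a log2 fold change of -1.93.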
